A study of Gossypium hirsutum with 6 samples.

Results

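Ovules of a fiberless cotton mutant had much more RNA of 80 genes than ovules of the fiber-bearing line. Each of these genes was also detected in the fiber-bearing line. The genes were chosen on their FPKM, a level of RNA that is corrected for transcript length and for the number of mapped reads. A gene was taken where each library of the fiberless mutant *Xu142fl* had at least 2 FPKM, where the largest value in Xu142 was at most 1/4 of the smallest value in *Xu142fl*, and where at least 1 Xu142 library was above 0. The table held 65894 genes and 81 met this. Genes in the stretches around the MML3 genes on chromosomes A12 and D12 and a few other genes were left out beforehand, which removed only the DNA replication gene Gh_A11G1285. Since the difference between the lines chose the genes, that difference is described below and is not tested.

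Xu142 is an upland cotton (*Gossypium hirsutum*) variety with fiber, and *Xu142fl* is a fiberless mutant that carries its name. Both were grown in a field, and ovules dissected from floral buds at −3 and −1 DPA (days post anthesis, where minus marks days before the flower opens) went into each library. There were 3 libraries of each line, which the study text calls biological replicates, and no treatment. The study text places these stages before cells that start a fiber could be clearly seen on wild-type ovules by light microscopy. How much each stage contributed to a library was not given in the sources used here.

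A cotton fiber is a single epidermal cell of the ovule that bulges out around anthesis and then elongates. MYB transcription factors of the MIXTA-like group, among them MML3 and MML4, are known to act in the start of this growth. Upland cotton is an allotetraploid, so most genes exist as a copy in the A subgenome and a copy in the D subgenome, and the gene IDs name the chromosome (Gh_D10G0368 lies on D10). IDs that start with BGI_novel are predicted new genes, which the authors assembled from the reads and which carry no chromosome in the ID. None of the 80 genes is named in the study text, and 0 of the 80 IDs matched the RefSeq table used for names, so no function is given for them.

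The fiber genes followed the line labels. MML3 on D12 (Gh_D12G1628) was at 61.49, 54.55 and 51.83 FPKM in Xu142 and at 0.18, 0.37 and 0.28 FPKM in *Xu142fl*. MML3 on A12 (Gh_A12G1503) was reduced less, at 44.37, 35.25 and 36.67 FPKM against 7.76, 6.96 and 8.34 FPKM. MML4 on A12 (Gh_A12G1504) was low in both lines, at 1.0, 2.04 and 1.3 FPKM against 0.46, 0.29 and 0.23 FPKM. The FPKM of all genes summed to between 804997 and 844877 in a library, and the files hold no read counts, so no counting interval can be given. Replicate 2 of Xu142 and replicate 1 of *Xu142fl* stood apart from the rest: their median gene was at 3.52 and 3.38 FPKM against 3.84 to 4.01 FPKM in the other 4 libraries, and their deviations from their own line's mean were correlated across genes (r of 0.4, where genes are not independent). Results are therefore also given without these libraries. In whole ovules, fewer cells of a type and less RNA in each cell cannot be told apart.

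The 80 genes together summed to 133.06, 141.74 and 120.56 FPKM in the Xu142 libraries and to 1393.8, 1391.6 and 1444.6 FPKM in the *Xu142fl* libraries. This was 0.0144 to 0.0171% of all FPKM in Xu142 and 0.169 to 0.173% in *Xu142fl*. The gap between these ranges follows from how the genes were chosen. The median gene of the set was at 0.375, 0.41 and 0.425 FPKM in Xu142 and at 7.155, 8.41 and 8.86 FPKM in *Xu142fl*. The sum is carried by a few abundant genes, while most of the set has a mean under 10 FPKM in *Xu142fl* and far lower levels in Xu142.

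**Figure D1:**
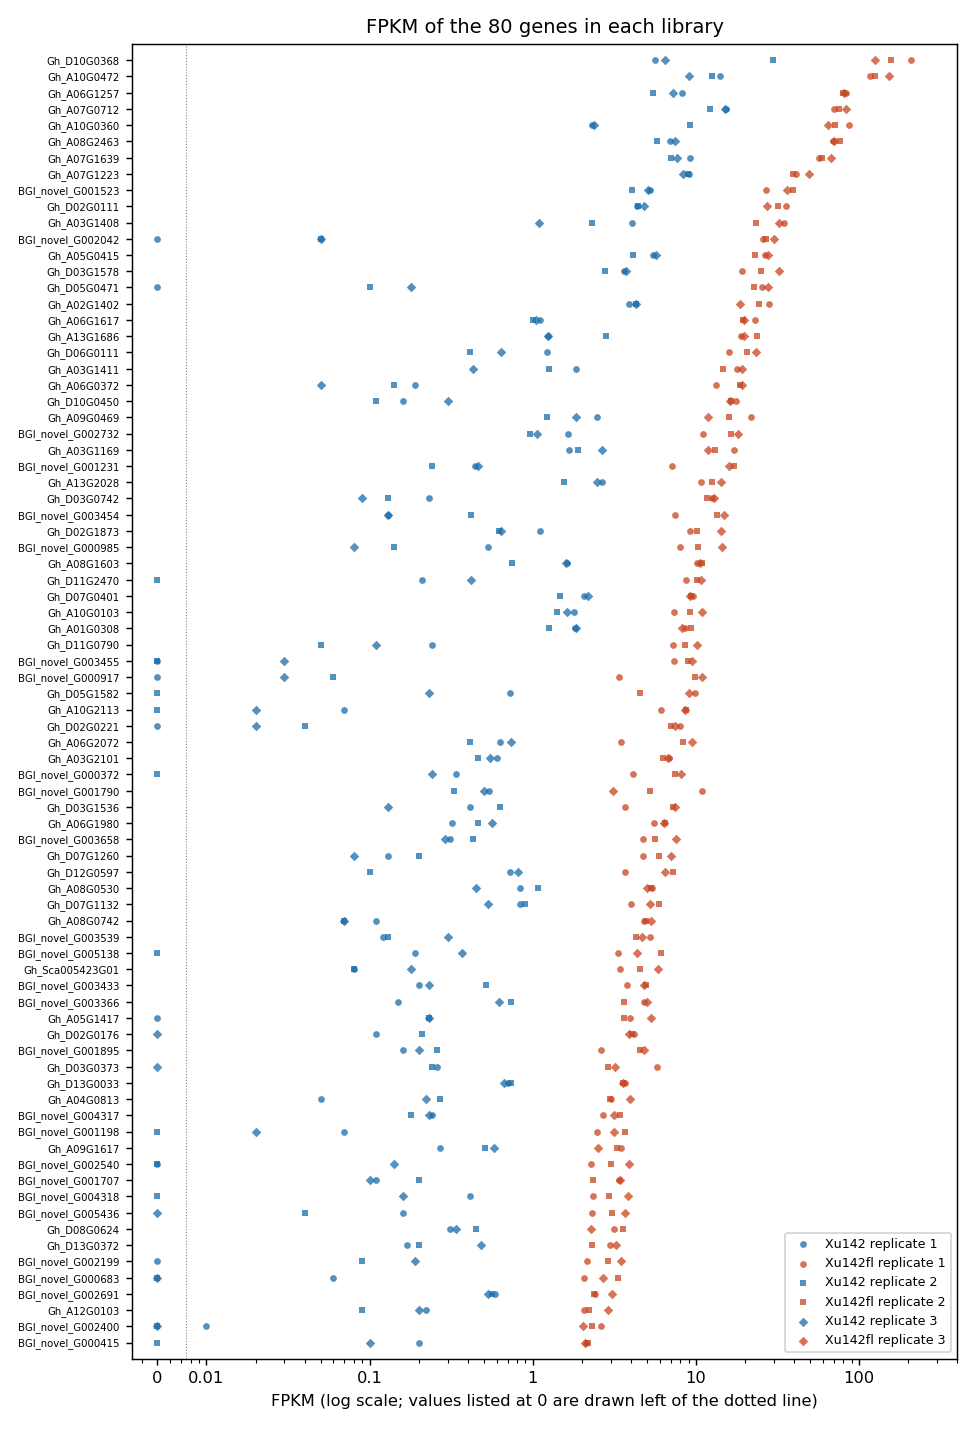
FPKM of each of the 80 genes in each library on a log axis, with genes ordered by their mean in Xu142fl (blue for Xu142, orange for Xu142fl, 1 marker shape per replicate, values of 0 left of the dotted line). No orange marker lies under 2 FPKM and the Xu142 values reach from 0 to 29.78 FPKM, and the gap between the colors follows from how the genes were chosen.

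Mean levels in *Xu142fl* ran from 2.13 to 162.8 FPKM with a median of 7.80 FPKM. Of the 80 genes, 26 had a mean under 5 FPKM there, 22 lay between 5 and 10, 14 between 10 and 20, 11 between 20 and 50, and 7 at 50 FPKM or more. Means in Xu142 ran from 0.00333 to 14.15 FPKM with a median of 0.373 FPKM. The ratio of the smallest *Xu142fl* value to the largest Xu142 value ran from 4.02 to 514.6 with a median of 9.34. It was under 5 in 20 genes, between 5 and 10 in 23, between 10 and 20 in 21, between 20 and 50 in 6, between 50 and 100 in 5, and above 100 in 5. Ratios above 20 were thus the exception.

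Close to that limit the genes on either side differed little. Just inside, Gh_A05G0415 was at 5.48, 4.13 and 5.71 FPKM in Xu142 and at 26.34, 22.97 and 27.49 FPKM in *Xu142fl*, a ratio of 4.02 between the nearest libraries. BGI_novel_G002691 also had a ratio of 4.02, Gh_A13G2028 had 4.04 and Gh_A10G0103 had 4.14. Just outside, Gh_D05G0602 was at 1.34, 1.15 and 1.23 FPKM in Xu142 and at 7.15, 6.72 and 5.23 FPKM in *Xu142fl*, a ratio of 3.90. The next were Gh_Sca004965G03 with 3.88, BGI_novel_G004722 with 3.86 and Gh_D06G0518 with 3.81. At the lower limit of 2 FPKM, the smallest *Xu142fl* value was 2.04 FPKM in BGI_novel_G002400, 2.05 FPKM in BGI_novel_G000683 and Gh_A12G0103, and 1.89 FPKM in BGI_novel_G004597, which lay just outside.

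**Figure D2:**
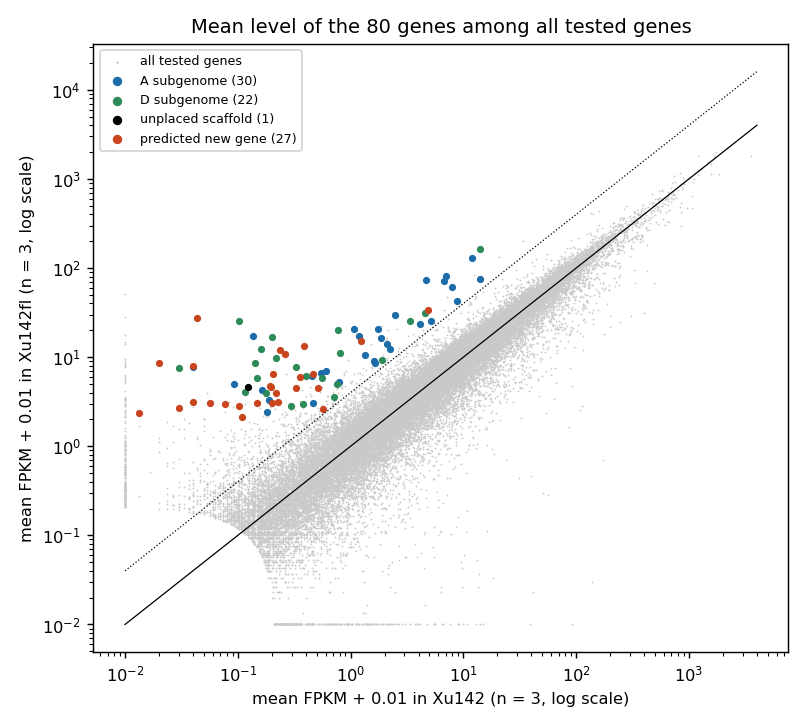
Mean FPKM + 0.01 in Xu142 (x axis) and in Xu142fl (y axis) on log axes, with 3 libraries behind each mean, gray for all 56395 tested genes and colors for the 80 genes by subgenome or class. The solid line marks equal levels and the dotted line a 4-fold difference of means. The 80 genes lie above the dotted line, with predicted new genes mostly at the left and A subgenome genes mostly at the upper right.

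The 2 most abundant genes of the set lie on chromosome 10 of the 2 subgenomes. Gh_D10G0368 was at 5.64, 29.78 and 6.42 FPKM in Xu142 and at 207.55, 156.74 and 124.11 FPKM in *Xu142fl*. Replicate 2 was far above the other Xu142 libraries yet below every *Xu142fl* library, as the rule demands. The means were 13.9 ± 13.7 and 162.8 ± 42.0 FPKM (SD, n = 3), a ratio of 11.7. Without Xu142 replicate 2, which stood apart, the Xu142 mean was 6.03 FPKM and the ratio 27. Gh_A10G0472 was at 14.07, 12.56 and 9.08 FPKM in Xu142 and at 116.69, 124.41 and 152.26 FPKM in *Xu142fl*. Its libraries were close within each line and far apart between them, with means of 11.9 ± 2.56 and 131.1 ± 18.7 FPKM (SD, n = 3).

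The next genes by level were all of the A subgenome. Gh_A06G1257 was at 8.15, 5.48 and 7.19 FPKM in Xu142 and at 82.42, 79.92 and 80.32 FPKM in *Xu142fl*. Its *Xu142fl* libraries were nearly equal, and the means were 6.94 ± 1.35 and 80.9 ± 1.34 FPKM (SD, n = 3). Gh_A08G2463 was at 6.97, 5.75 and 7.40 FPKM in Xu142 and at 69.27, 76.19 and 70.25 FPKM in *Xu142fl*, with a ratio of means of 10.7. Gh_A07G1639 was at 9.13, 7.07 and 7.61 FPKM against 57.01, 59.34 and 67.30 FPKM. In these genes the spread within a line was small beside the gap between the lines.

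Gh_A07G0712 had the highest mean in Xu142 and one of the smaller ratios. It was at 15.35, 12.14 and 14.96 FPKM in Xu142 and at 70.47, 74.70 and 82.72 FPKM in *Xu142fl*, which is 5.37-fold between the means. Gh_A07G1223 was at 9.05, 8.94 and 8.33 FPKM against 40.81, 39.30 and 48.91 FPKM, which is 4.90-fold. Both genes were plainly expressed in ovules of the fiber-bearing line too.

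Gh_A10G0360 resembled Gh_D10G0368 in its outlying library. It was at 2.30, 9.19 and 2.38 FPKM in Xu142 and at 86.08, 70.93 and 64.76 FPKM in *Xu142fl*. In both genes replicate 2 was the high Xu142 library and the *Xu142fl* libraries stood in the order 1, 2, 3 from high to low. The mean of Gh_A10G0360 was 4.62 ± 3.96 FPKM in Xu142 and 73.9 ± 11 FPKM in *Xu142fl* (SD, n = 3), a ratio of 16. Without Xu142 replicate 2 the Xu142 mean was 2.34 FPKM and the ratio 31.6.

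At the other end were genes barely above 0 in Xu142. BGI_novel_G002042, a predicted new gene, was at 0, 0.05 and 0.05 FPKM in Xu142 and at 25.73, 26.67 and 30.11 FPKM in *Xu142fl*. It had the largest ratio of the set, since its smallest *Xu142fl* value was 514.6 times its largest Xu142 value. FPKM are listed with 2 decimals, so ratios over values this small rest on the last digit. BGI_novel_G003455 was at 0, 0 and 0.03 FPKM against 7.33, 8.87 and 9.45 FPKM. BGI_novel_G002400 was at 0.01, 0 and 0 FPKM against 2.63, 2.30 and 2.04 FPKM, and its single listed 0.01 is all that set it apart from the genes at 0 in Xu142.

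Annotated genes also reached very low Xu142 levels. Gh_D02G0221 was at 0, 0.04 and 0.02 FPKM in Xu142 and at 7.94, 7.01 and 7.41 FPKM in *Xu142fl*. Gh_D05G0471 was at 0, 0.10 and 0.18 FPKM against 25.36, 22.68 and 27.60 FPKM. Its level in *Xu142fl* was close to that of BGI_novel_G002042. Gh_A10G2113 was at 0.07, 0 and 0.02 FPKM against 6.07, 8.71 and 8.62 FPKM, and Gh_A06G0372 was at 0.19, 0.14 and 0.05 FPKM against 13.35, 18.70 and 19.18 FPKM.

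How firmly the genes were detected in Xu142 differed over the set. In 59 genes all 3 Xu142 libraries were above 0, in 17 only 2 were, and in 4 only 1 was. The 4 genes seen in a single Xu142 library were all predicted new genes. Of the set, 8 genes were at 0 in Xu142 replicate 1, 12 in replicate 2 and 5 in replicate 3. A further 26 genes of the table had at least 2 FPKM in each *Xu142fl* library and 0 in every Xu142 library, so the boundary between these and the set runs through very small values.

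The class of a gene and its subgenome took no part in the choice. Of the 80 genes, 27 (33.8%) were predicted new genes, 30 (37.5%) were annotated on the A subgenome, 22 (27.5%) on the D subgenome and 1 on an unplaced scaffold. Over all 36785 genes with at least 2 FPKM in each *Xu142fl* library, 5.91% were predicted new genes. Of these 36785 genes, 45.4% were on the A subgenome and 47.1% on the D subgenome. Among the 209 genes that met the same rule with the lines exchanged, 32 (15.3%) were predicted new genes, and among the 26 genes at 0 in Xu142, 11 (42.3%) were. These shares are descriptions and their differences were not tested. Without both libraries that stood apart, the rule chose 149 genes, of which 55 (36.9%) were predicted new genes. Without *Xu142fl* replicate 1 alone it chose 123 genes, of which 51 (41.5%) were predicted new genes. With another single library left out, the share was 30.2 to 34.1%. The share moved with the limits of the rule. With at least 5 FPKM in each *Xu142fl* library it was 16.3% (7 of 43 genes). With all 3 Xu142 values above 0 it was 23.7% (14 of 59), and with a fold limit of 6 it was 42.3% (22 of 52).

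The makeup shifted with the level in Xu142. Of the 8 genes whose largest Xu142 value was under 0.1 FPKM, 6 were predicted new genes. Of the 44 genes between 0.1 and 1 FPKM, 19 were predicted new genes, 15 were on the D subgenome and 9 on the A subgenome. Of the 28 genes at 1 FPKM or more, 20 (71.4%) were on the A subgenome, 6 on the D subgenome and 2 were predicted new genes. The predicted new genes of the set had a median level of 4.51 FPKM in *Xu142fl*, against 15.2 FPKM for the A subgenome and 8.20 FPKM for the D subgenome. None of the 7 genes above 50 FPKM was a predicted new gene. Predicted new genes were also the lower class over all genes with at least 2 FPKM in each *Xu142fl* library. Their median there was 5.735 FPKM, against 10.66 FPKM for annotated genes.

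**Figure D3:**
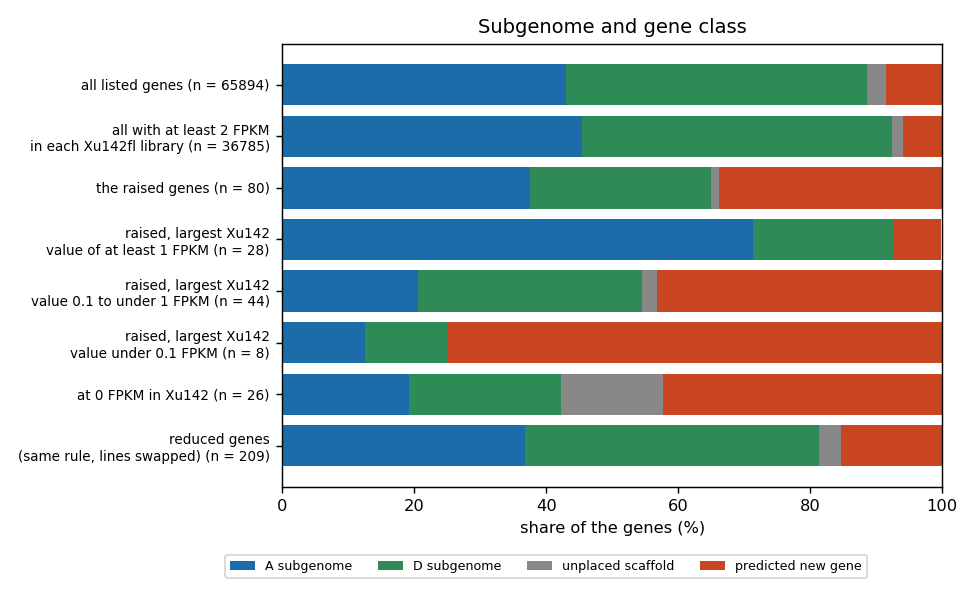
Share of genes (x axis, percent) that are on the A subgenome, the D subgenome or an unplaced scaffold or are predicted new genes, 1 bar per set of genes with its number. The predicted new share is 8.42% over all listed genes, 33.8% in the raised genes and 75% in those whose largest Xu142 value is under 0.1 FPKM.

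The most abundant predicted new gene was BGI_novel_G001523. It was at 5.22, 4.07 and 5.11 FPKM in Xu142 and at 26.73, 39.46 and 36.19 FPKM in *Xu142fl*, which is 7.11-fold between the means. BGI_novel_G002732 was at 1.64, 0.96 and 1.06 FPKM against 11.01, 16.49 and 18.10 FPKM. In both, replicate 1 was the low *Xu142fl* library.

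That order recurred over the set. *Xu142fl* replicate 1 was the lowest of its line in 44 of the 80 genes (55.0%), in 20 of the 27 predicted new genes (74.1%) and in 24 of the 53 annotated genes (45.3%). Over all genes with at least 2 FPKM in each *Xu142fl* library it was lowest in 48.9%, and over the predicted new genes among these in 67.6%. On the scale of log2(FPKM + 0.1), the median deviation of replicate 1 from the gene's *Xu142fl* mean was −0.332 for the predicted new genes of the set and −0.0523 for its annotated genes. For all predicted new genes with at least 2 FPKM it was −0.243. The low replicate 1 was therefore seen in the predicted new genes of the table as a whole. Without this library the rule chose more genes, and 41.5% of them were predicted new genes. The cause of that shift was not tested.

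**Figure D4:**
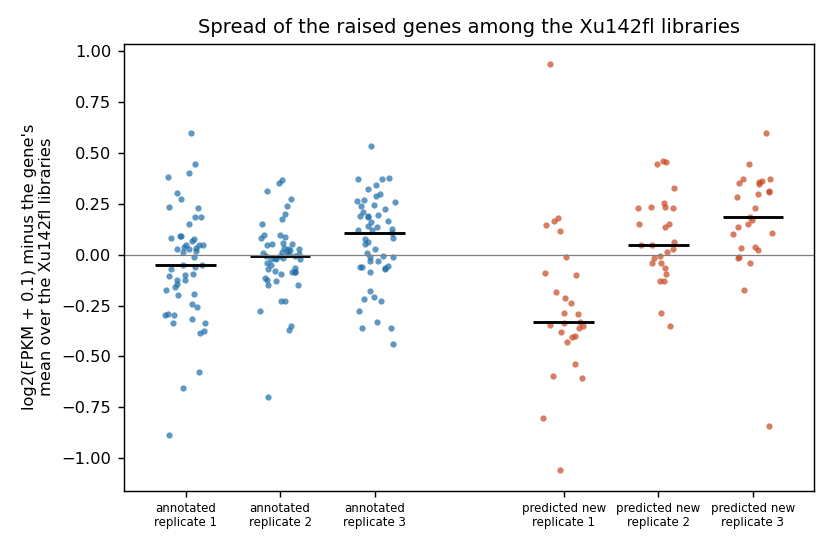
Deviation of each of the 80 genes in each Xu142fl library from the gene's mean over the 3 libraries, in log2(FPKM + 0.1), for annotated genes (blue) and predicted new genes (orange), with the median as a black line. The median of predicted new genes is −0.332 in replicate 1, 0.0469 in replicate 2 and 0.182 in replicate 3.

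Within *Xu142fl* the highest library exceeded the lowest by 1.02 to 3.50 times. The median was 1.41, against 1.28 over all genes with at least 2 FPKM in each library. Within a class the gap was smaller. The median was 1.587 in the predicted new genes of the set against 1.525 over all such genes, and 1.318 against 1.267 in annotated genes. The widest gene of the set was BGI_novel_G001790, at 10.81, 5.25 and 3.09 FPKM in *Xu142fl* and 0.54, 0.33 and 0.50 FPKM in Xu142. BGI_novel_G000917 was at 3.38, 9.87 and 10.88 FPKM in *Xu142fl*, with 0, 0.06 and 0.03 FPKM in Xu142, and Gh_A06G2072 was at 3.46, 8.29 and 9.41 FPKM, with 0.63, 0.41 and 0.73 FPKM in Xu142. The low library was replicate 1 in the last pair but replicate 3 in BGI_novel_G001790.

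Further wide spreads were those of BGI_novel_G001231, at 7.13, 17.21 and 15.97 FPKM in *Xu142fl*, and of Gh_D05G1582, at 9.79, 4.52 and 9.10 FPKM. The tightest gene was Gh_D13G0033, at 3.65, 3.59 and 3.57 FPKM in *Xu142fl* and at 0.70, 0.73 and 0.67 FPKM in Xu142. Its libraries were nearly equal within both lines. BGI_novel_G000415 was at 2.11, 2.17 and 2.10 FPKM in *Xu142fl*, with 0.20, 0 and 0.10 FPKM in Xu142.

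On the log2(FPKM + 0.1) scale the median difference of the 80 genes, *Xu142fl* against Xu142, was 3.70 (range 2.03 to 7.72), where the median over all 56395 tested genes was 0.0083. By limma with Benjamini-Hochberg adjustment, 0.195% of all tested genes passed an adjusted p of 0.001 with a 2-fold higher level in *Xu142fl*, and 45 of the 80 genes were among them. At 0.05, 1.67% were called higher (4.12% of the tested predicted new genes and 1.4% of the annotated genes), and all 80 genes were among them. In 15.6% of all tested genes every *Xu142fl* library was above every Xu142 library, which the rule demands of the 80. Nothing is read from these counts, since the same contrast chose the genes. The 45 fell to 21 without both libraries that stood apart and to between 3 and 28 with a library left out, the lowest without *Xu142fl* replicate 2. The calls over all tested genes fell as well, from 110 to 50 (0.0888%) without both libraries and to 8 (0.0142%) without *Xu142fl* replicate 2.

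The rule was also applied to 5 libraries at a time, and the genes it chose were read in the library left out. These sets held 82, 106 and 85 genes without Xu142 replicates 1, 2 and 3 and 123, 85 and 90 genes without *Xu142fl* replicates 1, 2 and 3. They are not the same as the 80 genes, which all 6 libraries chose, and a gene that also met the rule in the sixth library is one of the 80 by construction. The 80 were therefore 75.5% of the genes chosen without Xu142 replicate 2 and 65.0% of those chosen without *Xu142fl* replicate 1, the libraries that stood apart. Of these 106 and 123 genes, 103 and 122 had no overlap between the lines in the left-out library either. Both counts include the 80 genes, for which the rule fixes this. The share over all genes was not computed for a left-out library, so nothing is read from these counts.

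The annotated genes were spread over all chromosomes but A11, D01, D04 and D09, and on A11 the only gene that met the rule, Gh_A11G1285, had been left out by name. The most were on A06 with 5 genes, followed by A03, A08, A10, D02 and D03 with 4 each. Per 1000 listed genes A06 had 2.68 and D03 had 2.44. Only 1 pair of genes lay within 5 ID numbers of each other, Gh_A03G1408 and Gh_A03G1411. IDs are numbered along a chromosome, and distances in bases were not used here.

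Around this pair the raised levels extended to genes outside the set. Gh_A03G1408 was at 4.08, 2.29 and 1.09 FPKM in Xu142 and at 34.82, 23.18 and 32.18 FPKM in *Xu142fl*. Gh_A03G1411 was at 1.83, 1.25 and 0.43 FPKM against 17.88, 14.57 and 19.14 FPKM. In Xu142 both genes stood in the order 1, 2, 3 from high to low. Beside them, Gh_A03G1407 was listed at 0 in every Xu142 library and at 8.87, 9.41 and 7.47 FPKM in *Xu142fl* (limma adjusted p of 2.99e-05). Between them, Gh_A03G1409 was at 2.45, 3.54 and 1.07 FPKM against 6.02, 7.48 and 8.13 FPKM (log2 difference 1.71 ± 0.397 SE, limma adjusted p of 0.0337), a call kept in 3 of 6 fits without a library. The next listed gene after the pair, Gh_A03G1412, was at 0.23, 0 and 0 FPKM against 0.87, 0.22 and 2.29 FPKM, which overlap, and it was not called (limma adjusted p of 0.082). Gh_A03G1405 and Gh_A03G1415, further out, were not called either (limma adjusted p of 0.0864 and 0.117).

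More generally, the genes next to the set were compared between the lines, since they were chosen by position and not by their own values. The nearest listed gene on each side of the 52 genes with a chromosome gave 103 neighbours, of which 88 were tested. Of these, 9 (10.2%) were called higher in *Xu142fl* and 8 (9.09%) lower by limma with an adjusted p under 0.05 and a 2-fold change. Over the 49208 other tested genes on chromosomes, 1.24% were called higher and 4.48% lower. The median difference of the neighbours was −0.0481 on the log2 scale, and 40 of the 88 were above 0. Calls among the neighbours were thus made in both directions, and 4 of the 9 and 5 of the 8 were kept in all 6 fits without a library. The counts fell to 4 higher without Xu142 replicate 1 or *Xu142fl* replicate 2, and to 5 lower without any 1 of the Xu142 libraries or *Xu142fl* replicate 2. With the 3 nearest genes on each side, 6.83% were higher and 7.23% lower.

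**Figure D5:**
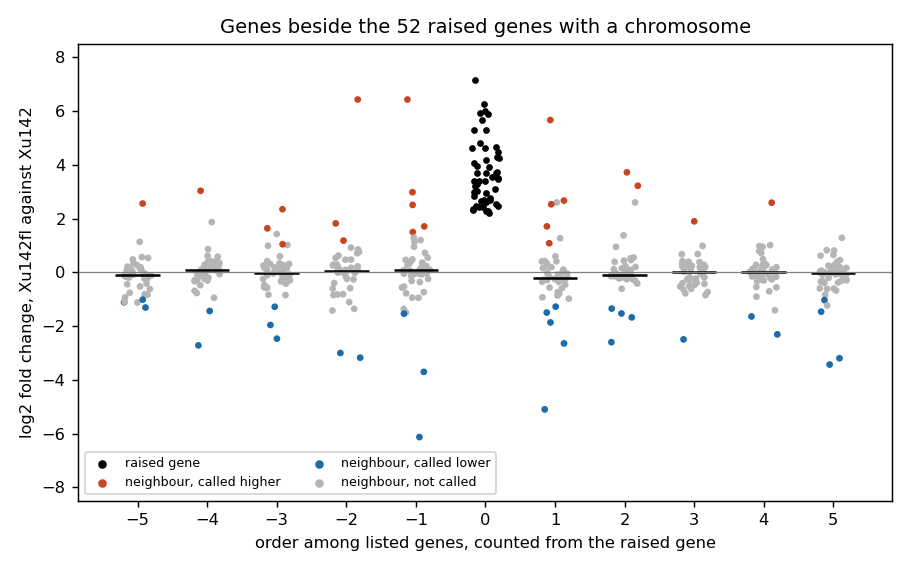
Difference between the lines (y axis, log2 of Xu142fl against Xu142) for the tested genes at 1 to 5 places before or after each of the 52 raised genes with a chromosome (x axis, order among listed genes), in orange where called higher, blue where called lower and gray otherwise, with the median at each place as a black line and the raised genes in black at 0. The medians lie near 0, and the nearest places hold 9 orange and 8 blue genes that are counted once each in the text.

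Some raised genes had a reduced gene beside them. Gh_A06G1257 lies 2 numbers from Gh_A06G1255, which was at 10.94, 8.23 and 9.1 FPKM in Xu142 and at 0.03, 0.09 and 0 FPKM in *Xu142fl* (log2 difference −6.13 ± 0.294 SE, limma adjusted p of 9.99e-05). Gh_D03G1578 was at 3.62, 2.76 and 3.72 FPKM in Xu142 and at 19.12, 24.91 and 32.23 FPKM in *Xu142fl*. Its neighbour Gh_D03G1579 moved the other way, from 7.01, 3.81 and 7.28 FPKM to 0, 0.2 and 0.07 FPKM (limma adjusted p of 0.00121). Gh_A08G0742 was at 0.11, 0.07 and 0.07 FPKM against 4.79, 4.95 and 5.30 FPKM, while the gene before it, Gh_A08G0741, was at 12.43, 14.31 and 12.25 FPKM against 1.32, 0.77 and 0.72 FPKM (log2 difference −3.70 ± 0.233 SE, limma adjusted p of 0.000315). Gh_A07G1224, beside Gh_A07G1223, was at 68.15, 60.33 and 64.8 FPKM against 19.28, 21.46 and 28.51 FPKM (limma adjusted p of 0.00184). In each of these pairs the genes changed in opposite directions. The rule fixes the direction of the raised gene, and the neighbour was named because it was called lower.

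Raised neighbours kept in every fit without a library were Gh_A03G1407, Gh_A06G0373, Gh_A10G2112 and Gh_D02G1871. Gh_A06G0373, beside Gh_A06G0372, was listed at 0 in Xu142 and at 3.56, 5.29 and 6.57 FPKM in *Xu142fl* (limma adjusted p of 0.000137). Gh_A10G2112, beside Gh_A10G2113, was listed at 0 in Xu142 and at 0.57, 0.94 and 0.61 FPKM (limma adjusted p of 0.00308), and was not called with a pseudocount of 1 FPKM. Gh_D02G1871, next to Gh_D02G1873, was at 23.23, 20.67 and 23.14 FPKM against 67.9, 56.04 and 66.69 FPKM (log2 difference 1.5 ± 0.104 SE, limma adjusted p of 0.000476). Among the calls not kept in every fit was Gh_A04G0812, beside Gh_A04G0813, at 8.33, 19.21 and 9.77 FPKM in Xu142 and at 156.37, 60.27 and 31.41 FPKM in *Xu142fl* (limma adjusted p of 0.034, kept in 3 of 6 fits). Neighbouring gene models whose reads run into each other would also give like values, and this was not tested.

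Gh_A10G0360 and Gh_D10G0368 were each followed by a gene that was lower in *Xu142fl*, though the levels of these neighbours in Xu142 differed. The next ID after Gh_A10G0360, Gh_A10G0361, was at 17.64, 11.58 and 17.02 FPKM in Xu142 and at 8.38, 3.27 and 2.48 FPKM in *Xu142fl*. The next ID after Gh_D10G0368, Gh_D10G0369, was at 32.51, 30.15 and 31.53 FPKM against 7.93, 3.27 and 4.62 FPKM. Both were called lower, with log2 differences of −1.86 ± 0.43 SE and −2.64 ± 0.289 SE (limma adjusted p of 0.0333 and 0.00255), and only the D10 call was kept in all fits without a library, the A10 call in 1 of 6.

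On the other side lie Gh_A10G0359 and Gh_D10G0367, both called WRKY28 in the study, after a family of plant transcription factors. The first was at 0.1, 0.22 and 0.14 FPKM in Xu142 and at 0.76, 0.42 and 0.27 FPKM in *Xu142fl*. The second was at 0.05, 0.05 and 0.09 FPKM against 0.46, 0.21 and 0.26 FPKM. Neither overlapped between the lines, and neither was called (limma adjusted p of 0.119 and 0.0707). Beyond them, Gh_A10G0358 was at 110.38, 89.88 and 110.04 FPKM against 93.63, 110.39 and 124.95 FPKM, and Gh_D10G0366 at 96.91, 93.85 and 95.99 FPKM against 94.16, 87.95 and 103.2 FPKM, so the raised level did not extend to these. Whether the A10 and D10 genes are copies of each other was not given in the sources used here, and reads that fit both copies would be divided between them.

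The study also named genes of DNA replication and of phospholipid synthesis. Of 20 DNA replication genes, 19 were called higher in *Xu142fl* at 0.05, with a median log2 difference of 1.12, and 1 met the rule. This was Gh_A11G1285, at 0.65, 0.78 and 0.86 FPKM in Xu142 and at 4.08, 4.05 and 3.59 FPKM in *Xu142fl*, with a ratio of 4.17 between the nearest libraries. Its exclusion by name is why 0 of the list are among the 80. Of 5 phospholipid synthesis genes, 0 were among the 80 and 2 were called higher, and the largest ratio of the smallest *Xu142fl* to the largest Xu142 value among them was 2.19. The study chose both lists on these libraries, so their direction is no independent evidence.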

How the data were processed

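Total RNA of ovules from 3 Xu142 and 3 *Xu142fl* samples was sequenced. The authors filtered the reads, mapped them to the NAU assembly of *G. hirsutum* with Bowtie2 for known genes, predicted new transcripts with HISAT2 (2.1.0 per the submitters' processing notes) and StringTie, and estimated levels with RSEM, which divides reads that fit several genes. They deposited FPKM with 2 decimals, which are normalized for transcript length and mapped reads but hold no counts and therefore no depth. All 6 columns matched a library by name, and 0 were left unused.

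FPKM were compared as log2(FPKM + 0.1) for the 56395 genes whose mean over the libraries reached 0.1 FPKM, with limma 3.58.1 in R 4.3.3 (intensity trend, Benjamini-Hochberg over all tested genes). A gene was called at a 2-fold change and an adjusted p of at most 0.05 or 0.001. Differences on this scale understate those of weakly expressed genes. P-values measure only the spread between these libraries, and an exact permutation test of 3 against 3 cannot give a p below 0.1. The fit was first tested on simulated data, in which every gene had the same spread and no weakly expressed gene was changed. Recovery of changes in weakly expressed genes, or in genes with another spread, was not checked by it. Python 3.11.15, pandas 2.3.3, numpy 2.4.6 and matplotlib 3.10.9 were used.

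The genes and lists were chosen with earlier results of these data known. Genes of the set were named by rank: the 8 highest means in each line, the 8 largest ratios of smallest *Xu142fl* to largest Xu142 value, the 5 widest and 3 tightest in *Xu142fl*, pairs within 5 ID numbers, the 3 most abundant predicted new genes, and the 4 nearest the fold limit on each side. Neighbours, genes nearest the 2 FPKM limit and a few genes of the set beside a called neighbour were named after their values were seen. Alternatives were other limits, pseudocounts, filters, scalings and limma settings, a block for the replicate number and fits with each library left out, and the fit without Xu142 replicate 2 and *Xu142fl* replicate 1 and the ratios of means without a library were added after the data were seen. Sequences and functions of the genes were not used here.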

Additional observations from a re-analysis of the deposited data

How the results depend on the processing

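The set held 80 genes as chosen, 52 with a fold limit of 6, 43 with at least 5 FPKM in each *Xu142fl* library, and 149 without Xu142 replicate 2 and *Xu142fl* replicate 1, an alternative added after seeing the data. With a library left out it held 82 to 123 genes, the most without *Xu142fl* replicate 1. Other limits gave 59 to 113 genes, and 79 after median-ratio scaling, of which 78 were in the set. Of the 80 genes, 45 were called at 0.001 as reported, 0 with a replicate block (all 80 at 0.05), 21 without both libraries that stood apart, and 3 to 28 with a library left out. With the block, 0.0% of all tested genes were called higher at 0.001. Same-numbered libraries did not deviate together (correlations of −0.246, −0.232 and 0.138), so the numbers were not taken as pairs. At 0.05 all 80 were called in every fit, except Gh_D12G0597 without *Xu142fl* replicate 2 (adjusted p of 0.067). The median log2 difference of 3.70 was 2.30 with a pseudocount of 1 FPKM, 4.08 with 0.01 FPKM, 3.83 without both libraries, and 3.60 to 3.83 with a library left out. Neighbours called higher were 9 as reported, 17 of 249 with the 3 nearest genes on each side, 4 to 9 with a library left out and 6 with the block. Neighbours called lower were 8 as reported, 5 to 9 with a library left out, 6 with the block and 10 without both libraries. The 30 genes of the set named by rank kept their direction under every alternative, which their choice largely fixes. The causes of these shifts were not tested, and depth is unknown from FPKM.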

Other observations

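A stretch of chromosome D02, picked after its values were seen, holds 3 of the 80 genes, Gh_D02G0111, Gh_D02G0176 and Gh_D02G0221. Gh_D02G0111 was at 4.35, 4.44 and 4.8 FPKM in Xu142 and at 35.7, 31.94 and 27.23 FPKM in *Xu142fl*, and Gh_D02G0176 was at 0.11, 0.21 and 0 FPKM against 4.17, 4.07 and 3.87 FPKM. Between the first and the last of the 3 genes lie 95 other listed genes, of which 73 were tested, 5 were called higher and 4 lower by limma with an adjusted p under 0.05. Because the stretch was picked for its values, no share of it is compared with other genes.

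Gh_D02G0127, a GRAS transcription factor gene in the study, was among those called higher. It was at 0.06, 0.01 and 0.02 FPKM in Xu142 and at 1.84, 3.73 and 2.62 FPKM in *Xu142fl* (limma adjusted p of 0.000726), so a single library kept it just under the 2 FPKM limit of the set. Gh_D02G0168 was among those called lower, at 126.5, 103.93 and 112.64 FPKM in Xu142 and at 32.85, 31.06 and 38.33 FPKM in *Xu142fl* (limma adjusted p of 0.000384). Gh_D02G0143 was also lower, at 36.7, 32.69 and 38.12 FPKM against 12.73, 15.5 and 15.09 FPKM (limma adjusted p of 0.000968). Raised and reduced genes thus lay within the same stretch, and no cause was tested.

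Some predicted new genes of the set carry consecutive numbers, namely BGI_novel_G003454 with BGI_novel_G003455 and BGI_novel_G004317 with BGI_novel_G004318. BGI_novel_G003454 was at 0.13, 0.42 and 0.13 FPKM in Xu142 and at 7.44, 13.41 and 14.78 FPKM in *Xu142fl*, beside 0, 0 and 0.03 FPKM against 7.33, 8.87 and 9.45 FPKM for BGI_novel_G003455. In both, replicate 1 was the low *Xu142fl* library. BGI_novel_G004317 was at 0.24, 0.18 and 0.23 FPKM against 2.7, 3.43 and 3.16 FPKM, and BGI_novel_G004318 at 0.41, 0 and 0.16 FPKM against 2.34, 2.94 and 3.82 FPKM. Whether the numbers follow position on a chromosome is not known from the files.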
